A study of Rattus norvegicus with 18 samples.

Results

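Cd14, Lyz2, Slc11a1, Vcan, Csf1r, Cd68 and Gpnmb, genes that mark monocytes and macrophages, were followed in blood mononuclear cells of rats kept on a high protein, a high fat or a low fat diet. The 7 genes were found by the gene names in the scanner output, in which Lyz2 is entered as Lyz and Vcan as Cspg2, and all of their 10 probes among the 41012 different probes of the array were read. Of these 10 probes, 9 passed the filter on dim probes (5 or more of the 18 arrays with Cy5 well above background), as did 25207 probes in all. The rule used gene names and no measured values, but the genes were chosen with earlier results of these data known. Counts of member probes below therefore do not come from a set picked blind to these data.

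Male Wistar rats entered the study at 2 months of age and ate 1 of 3 purified diets for 4 months, with 6 rats per diet and 1 array per rat. The high protein diet (HPD) gave 45% of its energy as protein, mostly casein, 45% as carbohydrate and 10% as fat. The high fat diet (HFD) gave 60% as fat, 20% as carbohydrate and 20% as protein. The low fat control diet (LFD) gave 70% as carbohydrate, 10% as fat and 20% as protein. LFD rats ate freely, HPD and HFD rats were given amounts matched to them in energy, and all rats were fasted for 14 h before the end. Mononuclear cells were taken from leg vein blood on a Ficoll gradient, a preparation that holds lymphocytes and monocytes and removes most neutrophils. RNA of each rat was labelled with Cy5 and hybridised against a Cy3-labelled equimolar pool of the samples, so each value below is a log2 ratio of 1 rat to the pool. A single array carries conflicting labels, HFD replicate 7 in its title and HPD in its source name; it was counted as HPD and is called HPD replicate 7.

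Monocytes are made in the bone marrow, circulate in blood and enter tissues, where they can become macrophages. CSF1R, the receptor for the growth factor CSF1, keeps these cells alive and guides their differentiation. CD14 hands bacterial lipopolysaccharide to the TLR4 receptor complex, lysozyme cuts bacterial cell walls, and SLC11A1 (also NRAMP1) pumps divalent metals out of the phagosome. CD68 is a heavily glycosylated protein of the lysosome membrane, and GPNMB is a membrane glycoprotein of lysosomes and melanosomes that lipid-laden macrophages make in quantity. Versican, the product of Vcan, is a large proteoglycan that binds hyaluronan and is made by classical monocytes in humans.

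The start regions of 5 members are shown first, since Lyz2, Csf1r and Cd68 varied together from rat to rat and Cd14 and Gpnmb held the clearest gaps between diets. PU.1, the factor encoded by Spi1 that macrophage genes depend on, binds sites around the letters GAGGAA, and each window was searched for GAGGAA on both strands. The windows run from 250 bases before to 50 after the gene start, in RefSeq's annotation of GRCr8, are written 5′ to 3′ along the gene's strand, and have matches on either strand (GAGGAA or TTCCTC) in capitals. They lie at chr7:54797962-54798261 (minus strand) for Lyz2, chr18:56834129-56834428 (plus) for Csf1r, chr10:54882392-54882691 (minus) for Cd68, chr18:28611109-28611408 (minus) for Cd14 and chr4:79340878-79341177 (plus) for Gpnmb.
Lyz2: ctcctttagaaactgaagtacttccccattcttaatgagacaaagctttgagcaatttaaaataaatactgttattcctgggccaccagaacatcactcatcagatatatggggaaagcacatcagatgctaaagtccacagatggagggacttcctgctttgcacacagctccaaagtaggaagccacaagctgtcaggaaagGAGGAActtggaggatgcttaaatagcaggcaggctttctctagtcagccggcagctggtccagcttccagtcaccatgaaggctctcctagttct
Csf1r: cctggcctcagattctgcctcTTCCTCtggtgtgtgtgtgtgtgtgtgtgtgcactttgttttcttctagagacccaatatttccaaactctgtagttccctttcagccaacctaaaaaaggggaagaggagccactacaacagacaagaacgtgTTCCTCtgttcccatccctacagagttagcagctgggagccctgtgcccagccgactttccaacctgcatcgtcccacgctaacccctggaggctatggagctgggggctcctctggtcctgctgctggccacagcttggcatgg
Cd68: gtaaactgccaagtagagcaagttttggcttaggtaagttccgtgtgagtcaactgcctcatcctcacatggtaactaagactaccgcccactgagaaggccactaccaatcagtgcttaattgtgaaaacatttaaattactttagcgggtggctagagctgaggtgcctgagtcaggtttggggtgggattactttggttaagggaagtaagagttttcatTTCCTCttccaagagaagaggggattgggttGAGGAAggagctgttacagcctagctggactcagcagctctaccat
Cd14: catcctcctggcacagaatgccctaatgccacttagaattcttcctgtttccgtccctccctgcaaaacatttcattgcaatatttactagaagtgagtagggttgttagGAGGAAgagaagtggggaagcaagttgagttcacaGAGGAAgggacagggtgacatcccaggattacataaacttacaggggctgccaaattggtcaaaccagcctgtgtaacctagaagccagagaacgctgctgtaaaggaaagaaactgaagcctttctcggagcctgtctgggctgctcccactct
Gpnmb: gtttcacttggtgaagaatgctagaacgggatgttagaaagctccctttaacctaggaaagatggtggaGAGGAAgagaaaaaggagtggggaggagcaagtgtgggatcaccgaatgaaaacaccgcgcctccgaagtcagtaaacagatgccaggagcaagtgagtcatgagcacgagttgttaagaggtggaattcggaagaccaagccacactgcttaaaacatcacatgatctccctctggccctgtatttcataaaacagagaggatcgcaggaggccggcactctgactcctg
Windows were found for 6 of the 7 genes, all but Slc11a1, and 5 of the 6 hold GAGGAA, against 27.6% of all 33469 windows. The matches start at -46 in Lyz2, at -229 and -95 in Csf1r, at -27 and 5 in Cd68, at -140 and -105 in Cd14 and at -181 in Gpnmb, counted from the gene start. Vcan has no match in its windows. For Gpnmb, a gene that the factor MITF is known to activate, the letters CANGTG, which include sites of that factor's family, were also searched on both strands. Its window holds 4 such matches and that of Cd68 holds 1, the other members hold none, and 44% of all windows hold at least 1. These are letter matches in short windows and show no binding.

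The member probes were measured with unequal certainty. The brighter Cd14 probe (chr18:29374990-29375049 on rn4, the build of the file's positions) and the probes of Lyz2 (chr7:56608440-56609236), Slc11a1 (chr9:73723371-73723827), Cd68 (chr10:56481762-56481821) and Gpnmb (chr4:77182198-77182257) were well above background on all 18 arrays, as was the brightest Csf1r probe (chr18:57105231-57105932). The Vcan probe (chr2:19712731-19712790) was well above background on 12 arrays, namely 2 of 6 HPD, 5 of 6 HFD and 5 of 6 LFD arrays. The dimmer Cd14 probe (chr18:29375770-29375829) was so on 13 arrays, 3 HPD, 5 HFD and 5 LFD. A Csf1r probe without a position was so on 11 arrays, and the last Csf1r probe (chr18:57061458-57061517) on 1 LFD array, so the last was not tested. Where the probes lie within exons or untranslated regions was not analysed here.

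Arrays sat on 5 slides and differed in depth of signal and in the spread of their ratios. LFD replicates 6 and 2 stood apart over all tested probes, with a median absolute deviation of the log2 ratio of 0.618 and 0.580, against 0.271 to 0.401 on the other 16 arrays, and lay at opposite ends of the first principal component. The median Cy5 signal per array ran between 30.4 and 59.8 units, and 53.1% to 63.4% of probes were well above background. Its highest values, 59.8, 52.5 and 47.9 units, were all on slide 1, which held no HPD rat. Pairs of arrays correlated between -0.60 and 0.74 over probes well above background on all 18 arrays; since the labels state which dye carried the rat's RNA, directions were kept as labelled. Slides held several diets each, and 89 of 25207 probes (0.353%) differed between slides at an adjusted p under 0.05 (limma, diet in the model) while 5857 (23.2%) did so at an unadjusted p under 0.05. None of the 9 member probes passed either threshold for slide, with unadjusted p between 0.110 and 0.968 by limma.

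The members varied strongly between rats. Over the 18 arrays the SD of the log2 ratio was 1.59 for Vcan and 1.16 for Cd14, against a median of 0.36 over all tested probes. The SD was 0.78 for Lyz2, 0.77 for Gpnmb, 0.76 for Csf1r, 0.63 for Slc11a1 and 0.49 for Cd68, so each of the 7 exceeded the median probe. Cd14 was 11.9 times higher, by ratio to the pool, in its highest rat than in its lowest, and Lyz2 9.77 times. The same few animals stood at the ends: HPD replicate 4 was the lowest of all 18 rats for 5 of the 7 genes (Cd14, Lyz2, Slc11a1, Vcan and Cd68), and HFD replicate 1 was the highest for 3 (Cd14, Lyz2 and Cd68). Within the HPD group, replicate 2 was the highest for 6 of 7 genes and replicate 4 the lowest for 6 of 7.

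**Figure D1:**
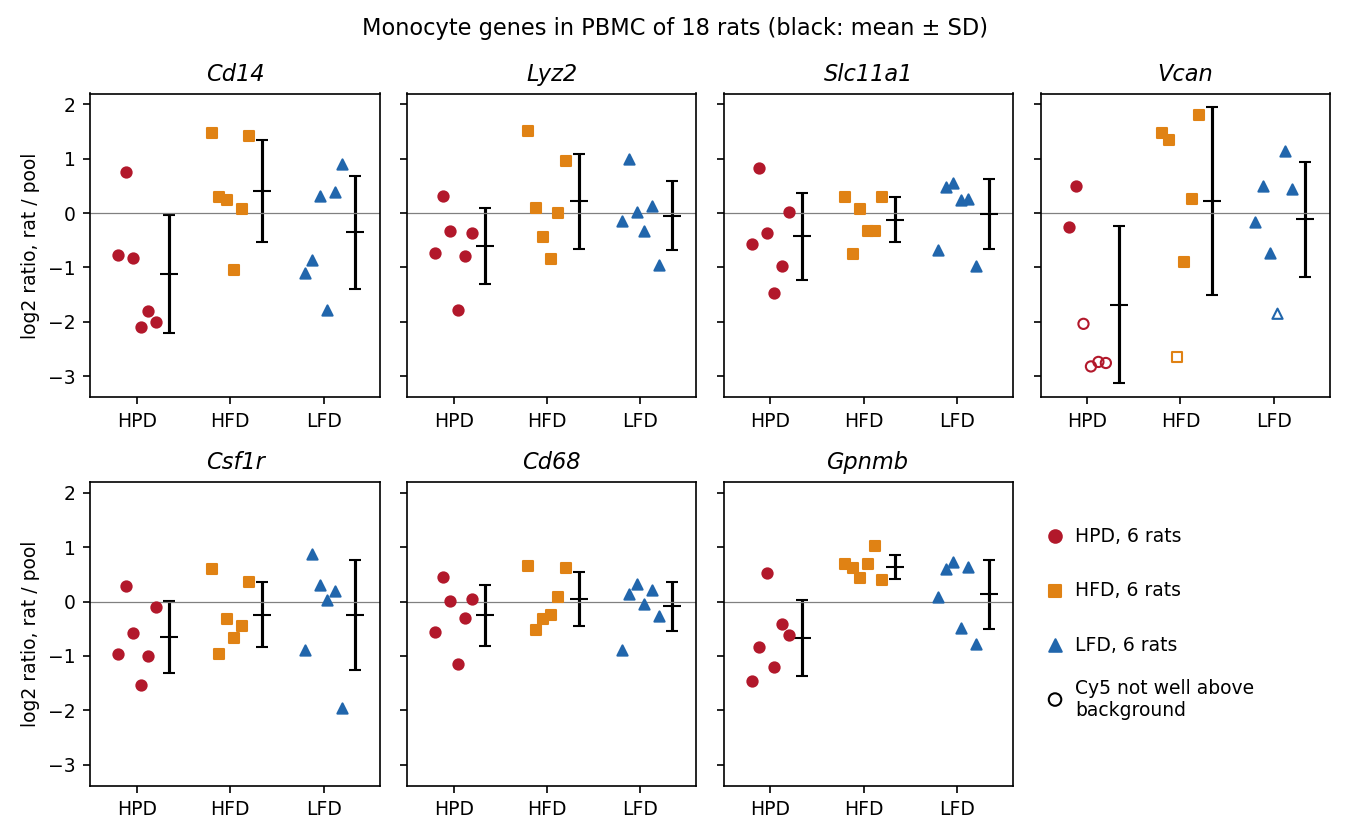
Log2 ratio of each rat to the pool (vertical axis) for the brightest probe of each gene, in HPD, HFD and LFD rats, with the mean ± SD of each diet in black and open symbols for Cy5 not well above background. The 6 HFD values of Gpnmb lie between 0.39 and 1.01 and 5 of 6 HPD values lie below all of them, while the diets overlap more widely for the other genes.

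The first question was how the high protein diet compared with the high fat diet, given at the same energy. The mean of every one of the 7 genes lay below the HFD mean in HPD rats, most for Vcan, Cd14 and Gpnmb, and least for Cd68 and Slc11a1. None of these differences passed an adjusted p under 0.05 in limma (0 of 9 member probes, against 0% of all 25207 probes), and all member probes had an adjusted p of 0.995. At an unadjusted p under 0.05, 4 of 9 member probes were lower in HPD rats, both of Cd14 and those of Vcan and Gpnmb, against 1.24% of all tested probes. No HPD rat sat on slide 1 or 5, and with slide as a block the unadjusted p was 0.0760 for the brighter Cd14 probe, 0.237 for Vcan and 0.00882 for Gpnmb by limma, so of these 3 probes only Gpnmb stayed under 0.05. No member's HPD and HFD rats were without overlap, a state that 0.0952% of all probes reached in the lower direction. In the test for any diet, 0 of 9 passed the adjusted threshold (0% of all probes did) and 3 of 9, both probes of Cd14 and that of Gpnmb, an unadjusted p under 0.05, against 2.3% of all probes. In RNA from mixed blood cells, fewer monocytes and less RNA per monocyte cannot be told apart.

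Gpnmb, the lysosomal glycoprotein gene, had the clearest gap between these diets. Its log2 ratio had a lowest value of -1.47, a median of -0.73 and a highest value of 0.52 in HPD rats, against 0.39, 0.65 and 1.01 in HFD rats. Of the HPD rats 5 lay below every HFD rat, so that the groups overlapped through 1 HPD rat only, and all 6 HPD rats lay below the HFD mean. The mean was -0.67 ± 0.70 in HPD rats and 0.64 ± 0.22 in HFD rats (SD, n = 6 each), a difference of -1.31 ± 0.31 (SE), or 0.403 times the HFD level, with an unadjusted p of 0.000462 and an adjusted p of 0.995 by limma. It ranked 6 among 25207 probes by unadjusted p. Within the slides that held both diets the difference was -0.96 on slide 2 (3 HPD rats and 1 HFD rat) and -0.96 on slide 3 (1 HPD rat and 2 HFD rats). It shrank to -0.48 when signals were background-corrected with normexp and an offset of 50, which adds a constant to this dim probe, whose Cy5 signal lay between 40.3 and 250 units.

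Cd14, the lipopolysaccharide co-receptor, gave the same direction on both of its probes. The brighter probe had a lowest value of -2.09, a median of -1.31 and a highest value of 0.75 in HPD rats, against -1.05, 0.26 and 1.48 in HFD rats. Of the HPD rats 5 of 6 lay below the HFD mean and 3 lay below every HFD rat, while HPD replicate 2 lay above most HFD rats. The difference was -1.53 ± 0.55 (SE; 95% interval -2.68 to -0.37; unadjusted p 0.0123 and adjusted p 0.995 by limma). The dimmer probe gave -2.01 ± 0.57 (unadjusted p 0.00253 by limma), and the ratios of the 2 probes correlated at r = 0.87 over 18 arrays. Within slides the brighter probe differed by -1.43 on slide 2 and by -1.99 on slide 3.

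Vcan, the versican gene, had the widest gap and the widest error. Its log2 ratio had a lowest value of -2.82, a median of -2.38 and a highest value of 0.49 in HPD rats, against -2.64, 0.80 and 1.80 in HFD rats. The 4 lowest HPD rats and the lowest HFD rat were not well above background, so the size of the gap rests on signals near the detection limit, and on 2 arrays the scanner software had put a surrogate in place of the Vcan signal. The difference was -1.91 ± 0.77 (SE; unadjusted p 0.0228 and adjusted p 0.995 by limma), and -1.16 with slide as a block. It was 0.96 on slide 2, where the single HFD rat was the one not detected, and -3.18 on slide 3, so the direction was not the same in both slides. With normexp and its offset of 50 the difference was -0.40. Without the array of conflicting labels the differences between HPD and HFD rats were -1.32 for Gpnmb, -1.35 for Cd14 and -1.69 for Vcan, and with it counted as HFD they were -1.14, -1.01 and -1.27 in the same order.

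Lyz2, Csf1r, Slc11a1 and Cd68 differed less than their spread allowed to be resolved. Lyz2, the lysozyme gene, had a lowest value of -1.78, a median of -0.55 and a highest value of 0.32 in HPD rats, against -0.84, 0.05 and 1.51 in HFD rats, with a difference of -0.83 ± 0.40 (SE; unadjusted p 0.0540 by limma). Csf1r, the CSF1 receptor gene, had -1.52, -0.77 and 0.29 in HPD rats, against -0.95, -0.38 and 0.59 in HFD rats, with a difference of -0.41 (95% interval -1.29 to 0.47). The diets overlapped widely for both genes. With slide as a block the Lyz2 difference was -0.65 (unadjusted p 0.209 by limma), and without slide 1 it was -0.53. Within slides the Lyz2 difference was -0.03 on slide 2 and -0.86 on slide 3. Slc11a1, the phagosome metal pump gene, had -1.48, -0.47 and 0.82 in HPD rats, against -0.75, -0.12 and 0.30 in HFD rats, with a difference of -0.31 (95% interval -1.03 to 0.42). Cd68, the lysosome membrane gene, had -1.15, -0.15 and 0.45 in HPD rats, against -0.52, -0.08 and 0.66 in HFD rats, with a difference of -0.30 (95% interval -0.88 to 0.28). Without HPD replicate 4 these differences were -0.59 for Lyz2, -0.23 for Csf1r, -0.095 for Slc11a1 and -0.12 for Cd68. The highest Slc11a1 value of all rats was in the HPD group, in replicate 2. A second Csf1r probe gave 0.33 ± 0.36 (SE), the opposite sign to the brightest one, and the 2 probes correlated at r = 0.55.

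**Figure D2:**
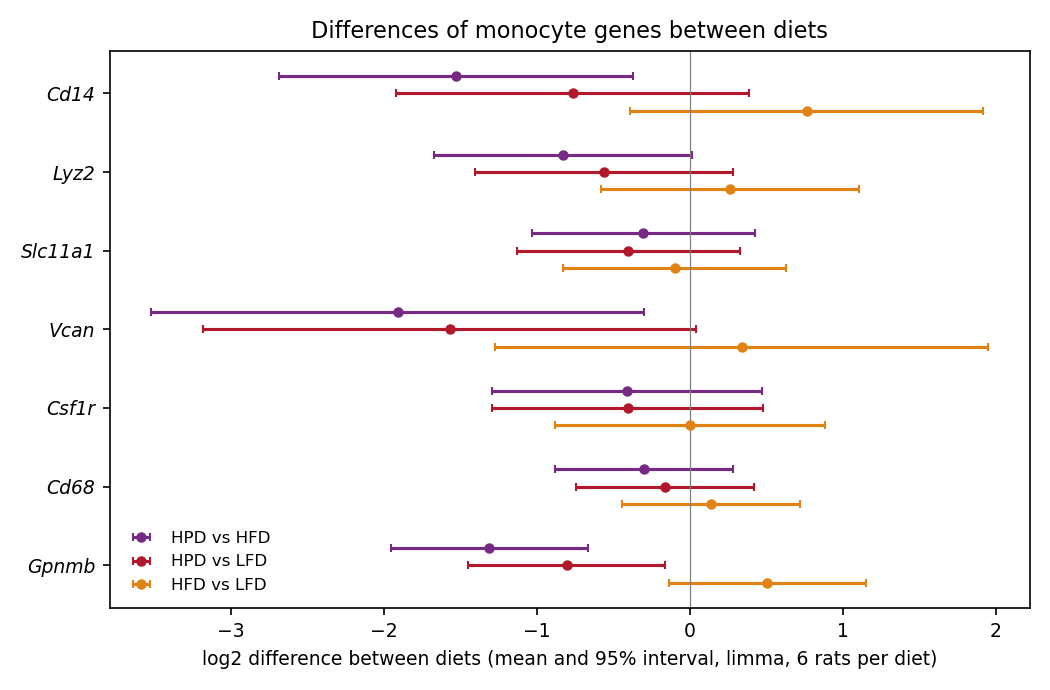
Log2 difference between diets (horizontal axis) with its 95% interval from limma for the brightest probe of each gene, 6 rats per diet. For HPD against HFD the intervals of Cd14, Vcan and Gpnmb lie below 0 before adjustment, and for HPD against LFD only that of Gpnmb does.

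The same HPD rats were set against the low fat controls, so these values share the HPD arrays with those above. All 7 means lay below the LFD mean in HPD rats, with Gpnmb the only member at an unadjusted p under 0.05. None of the 9 probes passed an adjusted p under 0.05 (0% of all probes did), and 1 of 9 passed an unadjusted p under 0.05 in the lower direction, against 1.21% of all probes. Gpnmb had -1.47, -0.73 and 0.52 as its lowest, median and highest value in HPD rats, against -0.77, 0.35 and 0.72 in LFD rats. In HPD rats 3 values lay below every LFD rat, and 5 of 6 lay below the LFD mean. The difference was -0.80 ± 0.31 (SE; unadjusted p 0.0172 by limma), or -0.84 with an unadjusted p of 0.0557 by limma with slide as a block, which no longer passes, and it was -1.14 on slide 3 and -1.10 on slide 4, the slides with both diets. With normexp and its offset of 50 the Gpnmb difference was -0.30.

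Cd14 and Vcan lay lower in most HPD rats than in LFD rats without passing either threshold. Cd14 had a lowest value of -1.78, a median of -0.28 and a highest value of 0.91 in LFD rats, and 3 of 6 HPD rats lay below all of them. The HPD minus LFD difference of Cd14 was -0.76 ± 0.55 (SE; unadjusted p 0.180 by limma), with -2.11 on slide 3 and 0.03 on slide 4. The dimmer Cd14 probe gave -1.14 ± 0.57 (SE; unadjusted p 0.0616 by limma), with -2.85 on slide 3 and -0.56 on slide 4. Vcan had -1.85, 0.14 and 1.13 in LFD rats, with 4 of 6 HPD rats below all of them. The Vcan difference was -1.57 ± 0.77 (SE, unadjusted p 0.0553 by limma). Those 4 HPD rats and the lowest LFD rat, LFD replicate 4, were not well above background, so their order is uncertain. With slide as a block the Vcan difference was -0.58, and with normexp -0.24. Both genes therefore had HPD rats inside and below the LFD range, for Vcan below it only by signals near the detection limit.

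The other members were closer together in HPD and LFD rats. Lyz2 ran between -0.96 and 0.99 in LFD rats with a median of -0.06, and the HPD minus LFD difference was -0.56 (95% interval -1.41 to 0.28). Csf1r had the widest LFD spread of these genes, with -1.95 in LFD replicate 6, 0.87 in LFD replicate 2 and a median of 0.11, and a difference of -0.41 (95% interval -1.29 to 0.48). These are the 2 arrays with the wide ratios, and leaving out LFD replicate 6 gave a Csf1r difference of -0.75, leaving out LFD replicate 2 one of -0.18. For Slc11a1 the LFD values ran between -0.98 and 0.55 with a median of 0.24, and the difference was -0.40 (95% interval -1.13 to 0.33). These intervals cover sizeable differences in either direction. Cd68 ran between -0.89 and 0.32 in LFD rats with a median of 0.04 and differed by -0.16 (95% interval -0.74 to 0.42), which turned to 0.018 without HPD replicate 4.

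The high fat diet was then compared with the low fat diet. The mean of 6 of 7 genes lay above the LFD mean in HFD rats and that of Slc11a1 below it. None of the 9 probes passed the adjusted threshold (0% of all probes did) or an unadjusted p under 0.05 in limma, against 0.821% of all probes higher and 1.19% lower at the unadjusted threshold. Gpnmb differed by 0.51 ± 0.31 (SE; unadjusted p 0.115 by limma). All 6 HFD rats lay above the LFD mean, and 1 lay above every LFD rat. Its within-slide differences were 0.31, -0.19 and 1.79 on slides 1, 3 and 5.

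Cd14 differed between HFD and LFD rats by 0.76 (95% interval -0.39 to 1.92), with 2 of 6 HFD rats above every LFD rat. That value was 0.22 without slide 1, and the slides with both diets gave 1.86, -0.12 and -0.84 on slides 1, 3 and 5. The dimmer Cd14 probe differed by 0.87 ± 0.57 (SE), with 1.17, 0.45 and 0.92 on the same slides, so the probes disagreed in sign on slides 3 and 5. Vcan differed by 0.34 (95% interval -1.27 to 1.95) and Lyz2 by 0.26 (95% interval -0.58 to 1.11). Neither gene's diets separated, and the Lyz2 value was 0.0045 without HFD replicate 1. Cd68 differed by 0.14, Slc11a1 by -0.10 and Csf1r by 0.002, all within their SE of 0.28, 0.35 and 0.42. The second Csf1r probe gave -0.45 ± 0.36 (SE), and the signs of the Csf1r, Vcan and Cd68 values turned in some alternatives.

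Slc11a1, Csf1r, Cd68 and Lyz2 followed each other closely from rat to rat. Slc11a1 and Csf1r correlated at r = 0.92 over the 18 arrays, Slc11a1 and Cd68 at 0.83, Lyz2 and Csf1r at 0.82, and the 6 pairs among these genes lay between 0.73 and 0.92. With slide means removed the 6 pairs lay between 0.88 and 0.96, the highest being Lyz2 with Cd68. Without the 2 arrays farthest out the 6 pairs lay between 0.59 and 0.94, the lowest being Lyz2 with Cd68. Cd14 and Vcan correlated with each other at 0.77, and with those 4 genes at 0.30 to 0.69 over 8 pairs. Without the 2 arrays farthest out these 8 pairs lay between 0.09 and 0.58. Gpnmb had r between 0.36 and 0.56 to the other 6 genes, and between 0.17 and 0.42 without the 2 arrays farthest out. With diet means removed, Gpnmb had r = 0.0003 with Cd14 and -0.03 with Vcan. It then had r between 0.31 and 0.44 with Lyz2, Slc11a1, Csf1r and Cd68. The lowest single pairs as measured were Cd14 with Csf1r (0.30), Vcan with Csf1r (0.32) and Vcan with Slc11a1 (0.33). The grouping was made after the values were seen, and the points share the Cy3 pool, the slides and each array's own normalization. The median over all 21 pairs was 0.56, it was 0.57 with slide means removed and 0.44 with diet means removed.

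**Figure D3:**
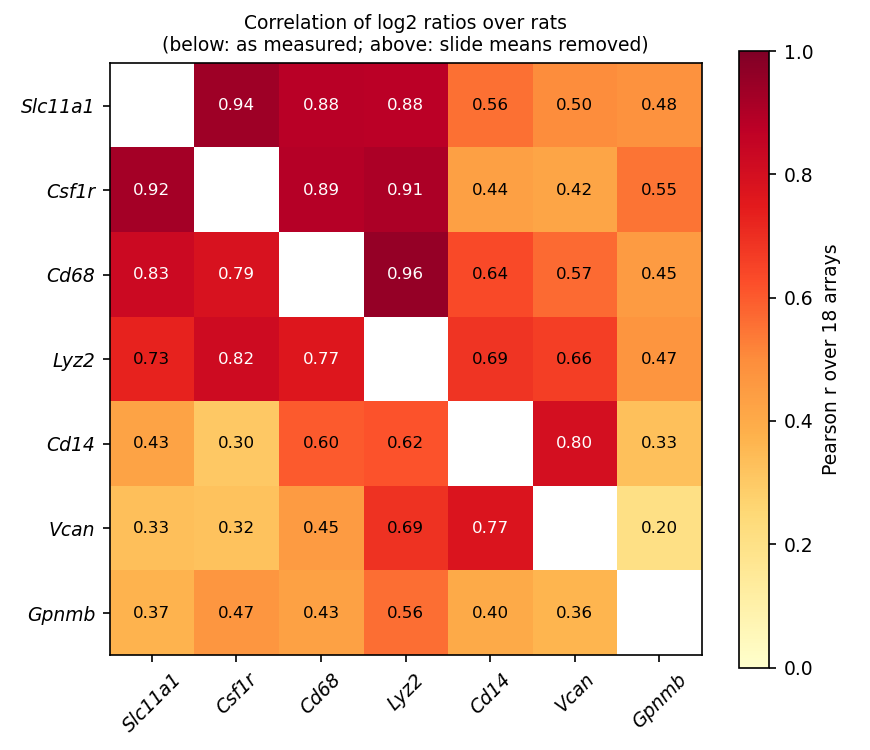
Pearson r of the log2 ratios over 18 arrays for each pair of members, as measured below the diagonal and with slide means removed above it. Slc11a1, Csf1r, Cd68 and Lyz2 form a block from 0.73 to 0.92 as measured, Cd14 and Vcan pair at 0.77, Gpnmb lies between 0.36 and 0.56, and the palest cell as measured is Cd14 with Csf1r at 0.30.

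The diets fell differently along these relations. On the plot of Csf1r against Slc11a1 the rats of all 3 diets lay along 1 band, from HPD replicate 4 and LFD replicate 6 at the low end to HPD replicate 2 and LFD replicate 2 at the high end. Gpnmb did not follow that band: HPD replicate 2 had the highest Slc11a1 value of all rats (0.82) and a Gpnmb value of -0.84, below every HFD rat. HFD rats kept Gpnmb between 0.39 and 1.01 while their Slc11a1 ran between -0.75 and 0.30. LFD replicate 6 was the lowest of all for Csf1r at -1.95 and the highest LFD rat for Cd14 at 0.91 on the brighter probe. On the dimmer Cd14 probe the same rat was at -0.95, among the lower LFD rats.

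**Figure D4:**
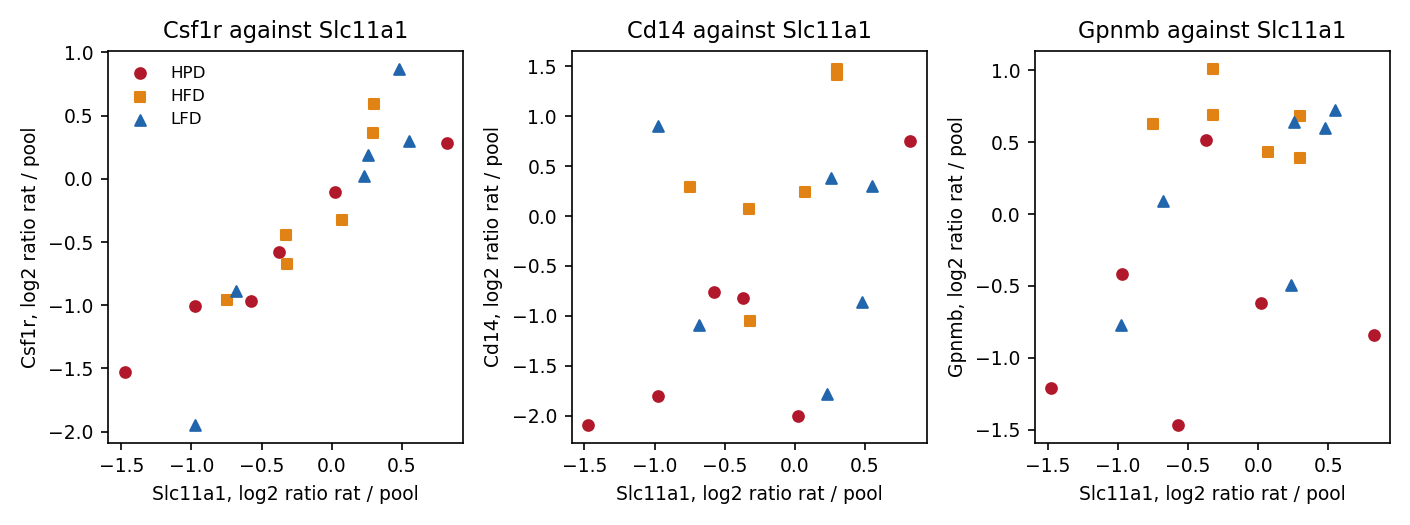
Log2 ratio to the pool of Csf1r, Cd14 and Gpnmb (vertical axes) against that of Slc11a1 (horizontal axis), 1 point per rat, coloured by diet. Csf1r and Slc11a1 lie along 1 band (r = 0.92) shared by the 3 diets. The 6 HFD rats hold Gpnmb between 0.39 and 1.01 while their Slc11a1 runs between -0.75 and 0.30.

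Genes outside the set with the most similar pattern were ranked by r with the per-array mean of the 6 members measured on all arrays, over 10292 named genes measured on all arrays. The first 6 were Lilrb4 (r = 0.94), an inhibitory receptor of myeloid cells, Lrp1 (0.91), an endocytic receptor, Adgre1 (0.91), the F4/80 macrophage antigen, Klf4 (0.91), a transcription factor that monocyte formation depends on in mice, Ak4 (0.90), a mitochondrial adenylate kinase, and Mgst1 (0.90), a microsomal glutathione transferase. All 6 stayed at 0.89 or above with slide means removed. In all, 77 of these genes (0.748%) had r above 0.8. The HPD minus HFD differences of the first 6 were between -0.67 for Ak4 and -0.36 for Adgre1. The ranking used the same arrays, so gaps like those of the members come with that choice.

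A ranking for each single member, added after the values were seen, gave different neighbours. Next to Cd14 stood Atf3 (r = 0.89), a stress-induced transcription factor, and the neutrophil-attracting chemokines Cxcl2 (0.87) and Cxcl1 (0.86). Next to Vcan stood Fcnb (0.92), a ficolin, Fn1 (0.91), fibronectin, and Cfd (0.90), complement factor D. Gpnmb was followed by Rassf4 (0.88), Jdp2 (0.83) and Igf2r (0.77), the receptor that carries enzymes to the lysosome. The nearest genes of the other members were Csf3r (0.94) for Lyz2, Slc6a12 (0.94) for Slc11a1, Plxnb2 (0.96) for Csf1r and Igsf6 (0.96) for Cd68. None of these genes passed the adjusted threshold between diets in limma. For HPD against HFD, Cxcl2 differed by -2.21 ± 0.95 (SE), Cxcl1 by -2.74 ± 1.32 (SE) and Rassf4 by -0.74 ± 0.15 (SE, unadjusted p 0.000127 and adjusted p 0.995 by limma). Jdp2 differed by -1.08 ± 0.43, Igf2r by -0.26 ± 0.15, Slc6a12 by -0.12 ± 0.28 and Igsf6 by -0.30 ± 0.39 (SE). These genes were ranked on the same arrays, so gaps and p-values like those of their member come with that choice.

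Other monocyte and macrophage genes lay on the same side as the members in most cases. Of 30 listed genes, 25 were on the array and 22 were tested. For HPD against HFD, 21 of 22 were lower and 1 was higher, with a median difference of -0.36, while over all tested probes 47.7% were lower and the median was 0.01. None passed the adjusted threshold, and 3 of 22 were lower at an unadjusted p under 0.05, against 1.24% of all probes. These were Fcnb (-1.18), the mannose receptor gene Mrc1 (-1.57) and the nuclear receptor gene Nr4a1 (-0.58), picked out after their values were seen. Mrc1 was well above background on no more than 8 of the 18 arrays, so the size of its gap rests partly on signals near the detection limit. Of the first 4 genes of the list, Adgre1 differed by -0.36 ± 0.31, the integrin gene Itgam by -0.63 ± 0.37, the fractalkine receptor gene Cx3cr1 by -0.41 ± 0.27 and the CCL2 receptor gene Ccr2 by -0.32 ± 0.40 (SE). Against LFD, 19 of 22 were lower in HPD rats, as were 46.1% of all probes (median -0.18 against 0.02 over all probes; Fcnb, at -1.04, was the only one at an unadjusted p under 0.05). For HFD against LFD, 21 of 22 were higher and 1 was lower, against 48.5% of all probes lower, with a median of 0.16 against 0.01 over all probes, none at an unadjusted p under 0.05. The mean of this list followed the member mean at r = 0.92 over the 18 arrays. This mean log2 ratio per array ran between -1.02 and 0.19 in HPD rats and -0.37 and 0.78 in HFD rats, so the diets overlapped. In LFD rats it ran between -0.38 and 0.43. The genes were read in the same rats and many varied together, so the counts of genes are not independent results. Msr1 and Cd163, both scavenger receptor genes of macrophages, were not well above background on any array.

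The partners of single members showed smaller gaps. For CD14 and TLR signalling, 12 of 15 listed genes were tested and 9 were lower and 3 higher in HPD than in HFD rats, with a median of -0.07. The receptor gene Tlr4 differed by -0.01 ± 0.34, its co-receptor gene Ly96 by 0.33 ± 0.26, the lipopolysaccharide carrier gene Lbp by -0.62 ± 0.34 and the adaptor gene Myd88 by -0.39 ± 0.33 (SE), none at an unadjusted p under 0.05. Cd14 and Tlr4 thus differed in size of gap in these samples, though the difference between the genes was not tested. For the CSF1R axis, 8 of 15 were tested, 7 were lower and 1 higher (median -0.24). At an unadjusted p under 0.05, 2 of 8 were lower, against 1.24% of all probes. These were Cebpb (-0.56), a transcription factor gene of myeloid cells, and Grb2 (-0.39), a signalling adaptor gene. Grb2 was picked out after its value was seen. Csf1, the ligand gene, differed by 0.06 ± 0.40, Spi1 by -0.09 ± 0.29 and Cebpa by -0.34 ± 0.37 (SE). None of the genes of either list passed the adjusted threshold.

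Lysosome genes also lay mostly below HFD in HPD rats, by little. Of 17 listed, 14 were tested, with 11 lower and 3 higher (median -0.12). At an unadjusted p under 0.05, 1 of 14 was lower, against 1.24% of all probes. This was the cholesterol transfer gene Npc2 (-0.31), picked out after its value was seen. Lamp1 and Lamp2, which code for the main lysosome membrane proteins beside CD68, differed by -0.17 ± 0.19 and -0.09 ± 0.19, and the cathepsin genes Ctsb and Ctsd by -0.33 ± 0.19 and -0.20 ± 0.17 (SE). Of 12 genes of iron and metal handling, 9 were tested, with 5 lower and 4 higher. The SLC11A1 relative Slc11a2 differed by 0.20 ± 0.17, the iron exporter gene Slc40a1 by -0.27 ± 0.51, the transferrin receptor gene Tfrc by 0.21 ± 0.22 and the ferritin gene Fth1 by -0.42 ± 0.39 (SE). Of 13 hyaluronan and proteoglycan genes, 4 were tested; 6 were well above background on no array and the remaining 3 on 1 or 2 arrays. The hyaluronan receptor gene Cd44 differed by -0.13 ± 0.09, Adamts15 by -0.14 ± 0.17, Bcan by 0.39 ± 0.27 and Selplg by -0.10 ± 0.18 (SE).

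Against LFD the gaps of these 5 lists were small as well. In HPD rats 7 of 12 CD14 and TLR genes, 7 of 8 CSF1R axis genes, 11 of 14 lysosome genes, 6 of 9 metal genes and 2 of 4 proteoglycan genes were lower than in LFD rats. The medians were -0.09, -0.13, -0.17, -0.04 and -0.02. A single gene was at an unadjusted p under 0.05, Hfe (0.23), a regulator of iron uptake picked out after its value was seen. Of all 25207 tested probes, 716 were so in either direction. In HFD rats 8, 6, 8, 4 and 2 genes of these lists were higher than in LFD rats, with medians between -0.05 and 0.09 and none at an unadjusted p under 0.05.

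Markers of other blood cells were read beside the members. Of the T cell markers, 12 of 13 were measured and 9 of 12 were higher in HPD than in HFD rats, with a median of 0.10. The level of this list, a mean log2 ratio per array, ran between -0.31 and 0.21 in HPD rats, -0.46 and 0.11 in HFD rats and -0.58 and 0.21 in LFD rats. B cell markers had a median HPD minus HFD difference of 0.01, with 3 of 6 lower. Of the NK cell markers, 7 of 8 were lower in HPD than in HFD rats, with a median of -0.19.

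Red cell and platelet genes also lay lower in HPD rats. All 8 tested red cell genes were lower in HPD than in HFD rats and than in LFD rats, with medians of -0.71 in both, none at an unadjusted p under 0.05. The level of this list ran between -1.39 and -0.05 in HPD rats, -1.45 and 0.91 in HFD rats and -1.15 and 1.00 in LFD rats. On slide 1, which held no HPD rat, it was 0.67 and 0.91 in HFD rats and 0.86 and 0.56 in LFD rats. Off that slide the highest HFD value was 0.32, in replicate 6, and the highest LFD value 1.00, in replicate 3. Slide and diet are thus partly mixed in these gaps. All 7 platelet genes were lower in HPD than in LFD rats (median -0.60) and than in HFD rats (median -0.27). The platelet list ran between -1.39 and -0.09 in HPD rats, -2.30 and 0.98 in HFD rats and -0.82 and 1.17 in LFD rats. Their part in the member differences was not tested.

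Of the 12 neutrophil markers on the array 6 were at or near background. The granule genes Mpo, Ltf and Mmp8 and the receptor gene Cxcr2 were well above background on 1 array each, Ngp on 2 and Lcn2 on none. The other 6, Prtn3, Camp, S100a8, S100a9, Mmp9 and Csf3r, were well above background on 17 or 18 arrays and were tested, with 4 higher and 2 lower in HPD than in HFD rats, and their level ran between -1.01 and 0.50 in HPD rats, -0.66 and 0.40 in HFD rats and -0.38 and 0.12 in LFD rats. Of the tissue macrophage genes, 3 of 8 were tested, with a median HPD minus HFD difference of 0.08. C1qb (0.08) and C1qc (0.19) were higher and Trem2 (-0.69) was lower in HPD rats, while C1qa was well above background on 1 array and Vsig4 on none. Among dendritic cell genes all 5 tested were lower in HPD than in HFD rats (median -0.20), and among 4 basophil and mast cell genes 2 were. The means of the lists followed the member mean at r = 0.92 for the CSF1R axis, 0.55 for B cells, 0.46 for neutrophils, 0.43 for platelets, 0.40 for tissue macrophages, 0.36 for red cells and -0.35 for T cells, over 18 arrays. Without the 2 arrays farthest out these were 0.86, 0.26, 0.06, 0.45, 0.47, 0.29 and -0.10 in the same order. Partner lists had r = 0.78 for CD14 and TLR, 0.75 for lysosome, 0.72 for metal and 0.10 for proteoglycan genes. Dendritic cell genes had 0.42, basophil and mast cell genes 0.33 and NK cell genes 0.17. Without the 2 arrays farthest out these were 0.59, 0.61, 0.56, 0.27, 0.29, 0.27 and 0.03 in the same order.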

How the data were processed

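Scanner files, 1 for each array, were deposited by the authors. The submitters' processing notes name version 10.5.1.1 of Agilent Feature Extraction. Processed signals in these files are linear intensity values that the scanner software had corrected for background, detrended and dye-normalized, per the file headers. A matrix of log2 values was deposited as well; how the authors made it is not stated in the sources at hand. It covered 20256 probes, had column medians of 8.40 and correlated at 0.887 with the processed ratios (slope 0.697), so its centring stays unknown, and it served as an alternative only. Mean and background-median intensities, also in the scanner output per the file headers, served the normexp alternatives.

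Log2 ratios of processed Cy5 over Cy3 signals were averaged over the spots of a probe, with control spots and outlier spots left out. Probes whose Cy5 signal stood well above background on 5 or more arrays were fitted in limma 3.58.1 (R 4.3.3), all 3 diets sharing 1 estimate of the spread, with Benjamini-Hochberg adjustment over 25207 probes, two-sided, at an adjusted p under 0.05. Ratios were not scaled between arrays, and the probe brightest in Cy5 stands for a gene. Names come from RefSeq (GRCr8), which 19703 of 41012 probes matched, and probe positions are those of the files, on rn4. The script was tested on simulated data. The 5 slides were treated as batches, and precision is limited by the number of arrays.

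The genes, lists and tests were chosen with earlier results of these data known. Named genes are all member probes, the first 4 tested genes of each list of partners and the 6 genes most like the members' mean. Alternatives covered background correction, scaling, channel, filter, slides, replicate numbers, array weights and arrays left out, averaged or relabelled.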

Additional observations from a re-analysis of the deposited data

How the results depend on the processing

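No member passed the adjusted threshold in limma in any of 297 member results under settings other than leaving out an array, nor with any array left out, and 10 of the 297 had the opposite sign. For Csf1r, HFD minus LFD, these were -0.060 with normexp on all spots, -0.055 in the authors' table, -0.12 with ratios scaled between arrays, -0.14 with array weights, -0.14 with HFD replicates 1 and 6 averaged and -0.45 on the second probe, which also gave 0.33 for HPD minus HFD. Without slide 1, HFD minus LFD was -0.12 for Vcan and -0.018 for Cd68, and with the conflicting array counted as HFD it was -0.087 for Vcan. The cause was not tested. Leaving out 1 array at a time, HFD minus LFD ran between -0.29 and 0.028 for Slc11a1, -0.0090 and 0.91 for Vcan, -0.34 and 0.22 for Csf1r, -0.023 and 0.25 for Cd68 and 0.0045 and 0.47 for Lyz2, and HPD minus LFD ran between -0.32 and 0.018 for Cd68. HPD minus HFD kept its sign for Gpnmb (-1.55 to -1.15) and Cd14 (-1.90 to -1.31).

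The number of all probes called between diets was 0 in every setting run except 2 for HPD against LFD with array weights, and 0 to 1 with an array left out. The number called for slide was 834 and 888 with normexp on all and on unmarked spots, 2043 in the authors' table, 25 with scaling, 171 with Cy5 alone, 8 with no filter, 262 with probes detected on all arrays, 0 without slide 1, 492 and 260 with the conflicting array left out or counted as HFD, and 0 to 3168 with an array left out. The median correlation of member pairs ran between 0.45 (without HPD replicate 4) and 0.60 (without HFD replicate 4). Replicate numbers did not pair the rats: 6 of 16 same-numbered pairs correlated above 0.1 and 3 arrays correlated best with their own number. With replicate number as a block, Gpnmb differed by -1.44 and Cd14 by -1.13 between HPD and HFD, and 0 probes were called in each comparison.

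Dim probes limit Vcan, the second Cd14 probe and the lesser Csf1r probes, whose signals were near background on many arrays. In 30 sets of 6 rats, none held a rat far enough from the others to stand out by Dixon's test.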
